A study of Bos taurus with 8 samples.

Results

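PTGS2 (ENSBTAG00000014127), the gene of prostaglandin-endoperoxide synthase 2, also called COX-2, was examined in bovine blastocysts as 1 of the 27607 genes in the count tables. It was chosen from measured values: the study lists it among 52 genes of metabolic pathways that differed between donor groups in these same libraries. Its levels and its difference between the groups are therefore given as a description, with no test. The enzyme turns arachidonic acid, released from membrane phospholipids by phospholipases, into prostaglandin H2, from which further synthases make the individual prostaglandins. Unlike its constitutive relative PTGS1, PTGS2 is best known as an inducible gene. In ruminants it is known from the cumulus cells around the maturing oocyte and from the trophectoderm, the outer layer of the embryo, where prostaglandins take part in elongation and in the exchange with the uterus.

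Whole-transcriptome RNA-Seq had been performed on 8 libraries of total RNA, each from a pool of about 5 in vitro produced blastocysts on day 7 of culture. The oocytes came from Polish Holstein-Friesian heifers by ovum pick-up. Prepubertal donors were younger than 10 months and had no dominant follicle or corpus luteum, and pubertal donors, the control group, were older than 15 months and had one of these. Semen of a single bull was used throughout, cumulus cells were removed after fertilisation, only blastocysts of the better morphological grades were taken, and the labels give the sex of all samples as female. Oocytes were pooled within a group before maturation, and no source says whether the pools came from separate animals or cultures. The p values below measure only the spread between such pools.

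The libraries are called by their sample numbers. Samples 1, 2 and 3 were prepubertal and samples 5, 6 and 7 pubertal in every source. For samples 4 and 8 the sources differed: the sample labels give 4 as prepubertal and 8 as pubertal, whereas the gene lists of the study place 8 with the prepubertal and 4 with the pubertal samples. The grouping of the gene lists was used here, with 4 libraries in each group, and the main values of PTGS2 are also given with the labels' grouping. Reads counted on genes numbered 24828302, 24164077, 20112044 and 24831086 in samples 1, 2, 3 and 8, and 29549143, 27266940, 28098361 and 18510164 in samples 4, 5, 6 and 7.

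PTGS2 was an abundant transcript in every library. The reads counted on it numbered 17258, 20155, 18671 and 21661 in the prepubertal samples 1, 2, 3 and 8. They numbered 19884, 6280, 10837 and 11003 in the pubertal samples 4, 5, 6 and 7. Sample 5 thus had the fewest PTGS2 reads, although its total of gene reads was among the larger ones. The counting error of these numbers, with each read taken as an independent count, was at most 1.26% of the count. Copies of a molecule may be counted repeatedly, so the true error may be larger.

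The place of PTGS2 among all genes of a library, ordered by reads, differed between libraries and did not strictly follow these counts. It was the 66th gene in sample 3, the 75th in sample 8, the 84th in sample 2 and the 121st in sample 1. In the pubertal group it was the 126th in sample 4, the 152nd in sample 7, the 308th in sample 6 and the 600th in sample 5. Over the 8 libraries its median rank was 123.5. Ranks were taken on reads, which grow with transcript length, and no gene lengths of the annotation used for counting were at hand, so they order genes by reads and not by molecules.

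Among the 52 genes that the study pairs with a name, PTGS2 had the most reads in 6 of the 8 libraries. In those libraries it had between 2.23 and 3.72 times the reads of the next gene, which was ENO1 (a glycolytic enzyme), UQCRC1 (a subunit of respiratory complex III) or PGD (a dehydrogenase of the pentose phosphate pathway). In sample 6 PGD came first, with 11505 reads against 10837 of PTGS2. In sample 5 PTGS2 was 4th, behind PGD with 8080 reads, UQCRC1 with 7049 reads and another of the 52. Samples 5 and 6 were thus the only libraries in which PTGS2 did not lead this list. ENO1, UQCRC1 and PGD were chosen after their values were seen.

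Reads were scaled to counts-per-million values (CPM) of the reads on genes, with TMM factors that adjust for differences in composition between libraries. PTGS2 stood at 709.2, 833.2, 887.0 and 851.6 CPM in samples 1, 2, 3 and 8. It stood at 665.0, 250.0, 389.8 and 582.8 CPM in samples 4, 5, 6 and 7. All 4 prepubertal libraries lay above all 4 pubertal libraries, but only just: the lowest prepubertal library, sample 1, exceeded the highest pubertal library, sample 4, 1.07-fold. The exact Poisson 95% intervals of these neighbours cover counting error only, again with each read taken as an independent count. They ran from 698.6 to 719.8 CPM for sample 1 and from 655.8 to 674.3 CPM for sample 4. The distance between samples 1 and 4 was smaller than the SD within either group, so these neighbours did not differ beyond the spread between pools. From low to high the order was samples 5, 6, 7, 4, 1, 2, 8 and 3. Each place in this order is a single library, so no neighbours in it can be said to differ beyond the spread between pools.

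**Figure D1:**
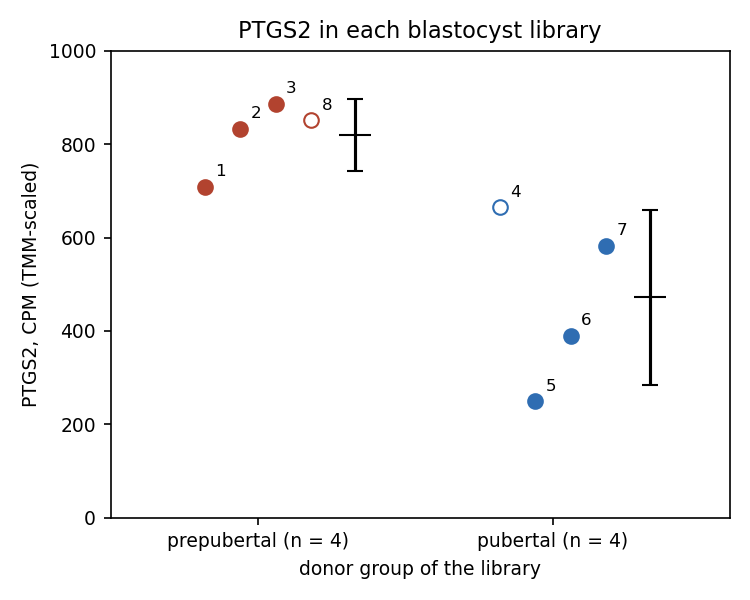
PTGS2 level in CPM (TMM-scaled, vertical axis) of the 8 libraries by donor group, each point a library with its sample number, and the bars the mean and SD of 4 libraries. Open points are samples 4 and 8, whose group differs between the sample labels and the gene lists. The prepubertal libraries lie between 709.2 and 887.0 CPM and the pubertal ones between 250.0 and 665.0 CPM.

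The mean level of PTGS2 was 820.2 CPM ± 77.3 (SD, n = 4) in prepubertal and 471.9 CPM ± 187.6 (SD, n = 4) in pubertal libraries, 1.74-fold higher in the prepubertal group. The log2 fold change of pubertal against prepubertal libraries, from edgeR's fit across all genes, was -0.80. Its standard error, derived from the F statistic of that fit, was 0.24. Taken against the prepubertal mean, the pubertal libraries held 81.1% of it in sample 4, 71.1% in sample 7, 47.5% in sample 6 and 30.5% in sample 5. The size of the difference thus came mainly from samples 5 and 6. In a fit without both of them, made after the data were seen, the log2 fold change was -0.39, and it ranged from -1.01 without sample 4 to -0.58 without sample 5 when single libraries were left out. In pools of whole embryos, fewer cells that express PTGS2 and less PTGS2 RNA in each cell cannot be told apart.

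With the grouping of the sample labels, the prepubertal libraries (samples 1, 2, 3 and 4) had a mean of 773.6 CPM ± 103.9 (SD, n = 4) and the pubertal libraries (samples 5, 6, 7 and 8) a mean of 518.6 CPM ± 260.6 (SD, n = 4). The groups then overlapped, because sample 8 exceeded all but sample 3. The log2 fold change of PTGS2 was -0.58. In the 6 samples whose group was the same in every source it was -0.98, with 809.8 CPM ± 91.2 (SD, n = 3) in the prepubertal and a pubertal mean of 408 CPM ± 167.1 (SD, n = 3). The groups of these 6 libraries did not overlap in PTGS2. With only 3 libraries on each side this was common: 2657 genes, in either direction, did not overlap where 15579 were tested. With all 8 libraries in the main grouping it was 844 of 15513 genes. The separation in the 6 samples is therefore no separate support for the difference. The mean level of PTGS2 was lower in the pubertal group under each of these groupings.

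As background, the other genes whose groups did not overlap were counted. Of the 15513 genes that passed edgeR's low-count filter, 420 (2.71%) lay lower in all 4 pubertal than in all 4 prepubertal libraries, as PTGS2 did, and 424 lay higher, 844 in all. With the labels' grouping 580 genes did not overlap, and PTGS2 was not among them. Since PTGS2 was selected on this contrast, nothing is read from its place among them. A gene was called if it changed more than 1.2-fold and its p, adjusted over all genes after Benjamini and Hochberg, was below 0.05. By the quasi-likelihood test of edgeR 0 genes (0%) were called, and 1681 (10.8%) had an unadjusted p under 0.05. The latter count was 1134 with the labels' grouping, where edgeR again called 0 genes, and 682 of 17295 genes without samples 5 and 6. It was 1919 in the 6 undisputed samples, and without single libraries it ran from 1113 of 16100 genes without sample 6 to 2301 of 16071 without sample 1. DESeq2 called 128 of 13933 genes (0.919%) at the same limits. Leaving out single libraries, edgeR called 5 genes when sample 1 was dropped, 8 when sample 4 was, 3 when sample 7 was and 4 when sample 8 was.

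The log2 fold changes of other abundant genes are given for scale only, since the choice of PTGS2 on this contrast fixed its place among them. Of the 1827 genes with a mean of at least 100 CPM, 3 had a more negative log2 fold change than PTGS2, and the median of the 1827 was 0.07. The 3 were ENSBTAG00000025441 (-1.28), ENSBTAG00000054572 (-0.84) and ENSBTAG00000004905 (-0.83). A further 3 moved farther than PTGS2 in the other direction, ENSBTAG00000003222 (0.92), ENSBTAG00000001005 (0.87) and ENSBTAG00000038384 (0.86). These identifiers have no paired name and were picked with their values in view. With the labels' grouping, 9 of the 1827 had a more negative value. Over all 15513 genes, where many of low abundance vary widely, 941 had a more negative log2 fold change than PTGS2.

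The groups also differed in how much PTGS2 varied within them. The coefficient of variation (CV, the SD as a percentage of the mean) of PTGS2 was 9.43% over the 4 prepubertal and 39.7% over the 4 pubertal libraries. Among the 1827 abundant genes the median CV was 9.74% in the prepubertal and 9.89% in the pubertal group. PTGS2 was thus close to a typical abundant gene in the prepubertal group, whereas in the pubertal group only 21 of the 1827 genes had a larger CV. Over all 15513 genes, 12266 had a larger CV than PTGS2 in the prepubertal group and 3043 in the pubertal group. From the lowest to the highest library PTGS2 changed 1.25-fold in the prepubertal and 2.66-fold in the pubertal group, against medians of 1.24-fold and 1.25-fold for the abundant genes. Without sample 1 the prepubertal CV was 3.19%, and without sample 5 the pubertal CV was 25.9%. The labels' grouping gave 13.4% and 50.3%. The spread was not tested between the groups.

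**Figure D2:**
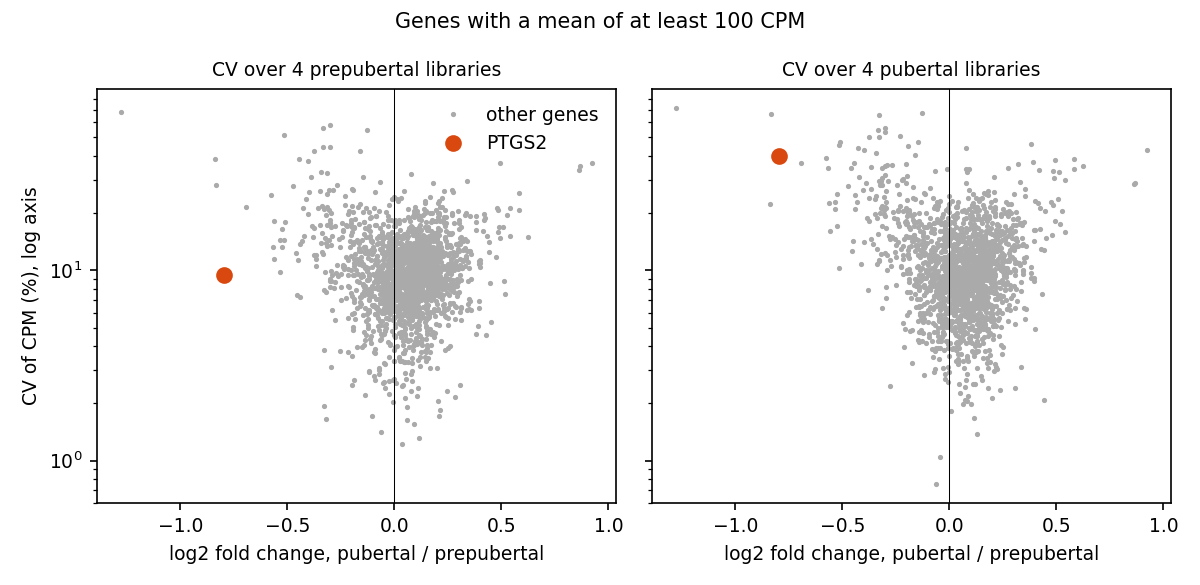
CV of CPM over the 4 prepubertal libraries (left) and the 4 pubertal libraries (right), on a log axis in percent, against the log2 fold change of pubertal over prepubertal libraries, for the 1827 genes with a mean of at least 100 CPM (grey points) and PTGS2 (orange). PTGS2 lies at a log2 fold change of -0.80 in both panels, at 9.43% on the left and 39.7% on the right.

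edgeR's estimate of the variation beyond counting error, pooled over both groups, was 23.6% for PTGS2. The trend over genes of the same abundance stood at 13.1%, and 28 of the 1827 abundant genes had a larger estimate than PTGS2. Over all 15513 genes the median estimate was 20.3%, and 6788 genes had a larger one than PTGS2. The low values in the pubertal group enter this estimate too, so its place here is not independent of the choice of PTGS2.

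Several properties of the libraries were set beside PTGS2. Of the uniquely mapped reads, sample 3 had 54.1% and sample 7 had 47.5% outside genes, and the other libraries had 35.8% to 41.6%. Sample 3 had the highest PTGS2 level of all and sample 7 the second highest of its group. Leaving out samples 3 and 7, which was decided after seeing the data, the log2 fold change of PTGS2 was -0.88. In a fit with each library's assigned share as a covariate it was -0.72. The study reports RNA integrity only as a range of moderate values, and libraries made by amplification from picogram amounts of RNA. It gives no integrity of single libraries, so the part of RNA quality in the level and spread of PTGS2 was not tested.

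Principal components were computed on the 500 most variable genes, PTGS2 left out. On the first component, with 32.4% of the variance, samples 5 and 6 had the lowest scores, -19.8 and -28.9. Sample 3, the highest in PTGS2, had the highest score, 27.8. The other 5 libraries scored between -5.92 and 12.1. On the second component, with 26.9% of the variance, samples 5 and 6 lay in the middle, at 0.62 and -0.09, and samples 4 and 1, neighbours in PTGS2, lay farthest apart, at -32.9 and 26.6. The libraries low in PTGS2 were thus at an end of the first component and not of the second. In sample 5 the 10 most counted genes took 24.7% of the reads, the largest share of the 8 libraries, and its TMM factor was the lowest, 0.92. The part of these properties in the level of PTGS2 was not tested.

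The other genes of prostaglandin and leukotriene metabolism were sought from a list of 37 synthases, transporters and receptors. The files give Ensembl identifiers without names, and the study pairs a name with only 4 of the 37: PTGS2, MGST2, MGST3 and GPX3. The remaining 33, among them PTGS1, the phospholipase gene PLA2G4A, the prostaglandin E synthases and the receptors, were not analysed here. The same held for the 23 planned markers of trophectoderm, inner cell mass, hypoblast, cumulus cells and sperm, of which 0 could be paired. The identity of the tissue and a carry-over of cumulus cells, which can express PTGS2, were therefore not tested. In the RefSeq gene table of the assembly ARS-UCD2.0, the protein-coding neighbours of PTGS2 are PDC and PLA2G4A.

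MGST2, MGST3 and GPX3 all had lower mean levels in pubertal libraries. The median of their log2 fold changes was -0.72, against -0.02 over all 15513 genes. The study chose them on this contrast in these libraries, so their direction, p values and calls are not independent evidence. By edgeR's quasi-likelihood test 0 of the 3 were called, where 0% of all genes were, and all 3 had an unadjusted p under 0.05, where 10.8% of all genes had. With the labels' grouping both shares with an unadjusted p under 0.05 were smaller, that of the 3 and that of all genes (1134 of 15513). Under that grouping edgeR again called 0 genes, and the log2 fold change of MGST2 was -0.13 with an SE of 0.26. DESeq2 called 1 of the 3, MGST3, where it called 0.919% of all genes.

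MGST3, a membrane-bound enzyme with glutathione transferase and peroxidase activity, stood at 5.92, 7.44, 5.23 and 4.44 CPM in samples 1, 2, 3 and 8. It stood at 2.88, 2.99, 2.23 and 3.23 CPM in samples 4, 5, 6 and 7. The groups did not overlap, and sample 6, not sample 5, was the lowest library. MGST3 changed by -1.03 on the log2 scale (SE 0.24), with an edgeR adjusted p of 0.26 and a DESeq2 adjusted p of 0.0218. With the labels' grouping it was -0.73 (edgeR adjusted p = 0.664), and over all alternatives its adjusted p ran from 0.0218 with DESeq2 to 1 with edgeR without samples 5 and 6.

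MGST2, which can join glutathione to leukotriene A4, stood at 12.5, 20.6, 17.5 and 17.1 CPM in samples 1, 2, 3 and 8, and at 8.06, 11.7, 12.0 and 12.7 CPM in samples 4, 5, 6 and 7. Here sample 4 was the lowest library, and sample 1 overlapped the pubertal group. MGST2 changed by -0.61 on the log2 scale (SE 0.19, edgeR adjusted p = 0.335), and with the labels' grouping it was -0.13 (edgeR adjusted p = 0.925).

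GPX3, a secreted glutathione peroxidase, stood at 7.07, 6.04, 5.23 and 4.48 CPM in samples 1, 2, 3 and 8, and at 3.85, 3.07, 3.45 and 3.50 CPM in samples 4, 5, 6 and 7. The groups did not overlap, and among the pubertal libraries sample 5 was the lowest, as in PTGS2. GPX3 changed by -0.72 on the log2 scale (SE 0.22, edgeR adjusted p = 0.335), and with the labels' grouping by -0.61 (edgeR adjusted p = 0.65). All 3 genes had under 500 reads in each library, far fewer than PTGS2.

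Genes with a pattern like that of PTGS2 were sought by Pearson's r of log2 CPM over the 8 libraries. The libraries share their group and their scaling, so r is a description and carries no p. Among the 51 other named genes, those most like PTGS2 were STS, which encodes steroid sulfatase (r = 0.96), ANPEP, aminopeptidase N (r = 0.95), CD38, an NAD-consuming ectoenzyme (r = 0.92), and GULO, the last enzyme of vitamin C synthesis (r = 0.91). Those most opposed to it were CYCS, cytochrome c (r = -0.93), ATP5PD, a subunit of ATP synthase (r = -0.93), GCSH, the carrier protein of glycine cleavage (r = -0.92), and ATP5MF, a further ATP synthase subunit (r = -0.90). The 52 named genes had been selected for a difference between the groups, which by itself moves their r away from 0. Of the 51 others, 13 had an r above 0.8 and 18 an r below -0.8, so the genes given here are the ends of larger sets. Spearman's rho lay between 0.93 and 1 for the first 4 and between -0.95 and -0.74 for the last 4.

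Of the named genes, STS followed PTGS2 most closely when all 8 libraries were used. It stood at 8.10, 10.1, 14.0 and 11.8 CPM in samples 1, 2, 3 and 8, and at 6.12, 2.75, 4.42 and 5.99 CPM in samples 4, 5, 6 and 7. The order of the 8 libraries was the same for both genes (Spearman's rho = 1). ANPEP was a rare transcript, with between 12 reads in sample 5 and 69 reads in sample 3. CD38 stood at 49.8, 43.2, 51.4 and 44.2 CPM in samples 1, 2, 3 and 8, and at 34.0, 16.6, 22.0 and 23.1 CPM in samples 4, 5, 6 and 7, again with sample 5 lowest and sample 3 highest.

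CYCS moved the other way over a narrower range. It stood at 85.6, 86.3, 85.3 and 79.6 CPM in samples 1, 2, 3 and 8, and at 99.6, 119.4, 112.9 and 91.4 CPM in samples 4, 5, 6 and 7. GCSH stood at 55.1, 68.6, 44.7 and 45.4 CPM in samples 1, 2, 3 and 8, and at 77.5, 163.5, 95.6 and 95.9 CPM in samples 4, 5, 6 and 7. In both genes sample 5, the lowest in PTGS2, was the highest library.

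**Figure D3:**
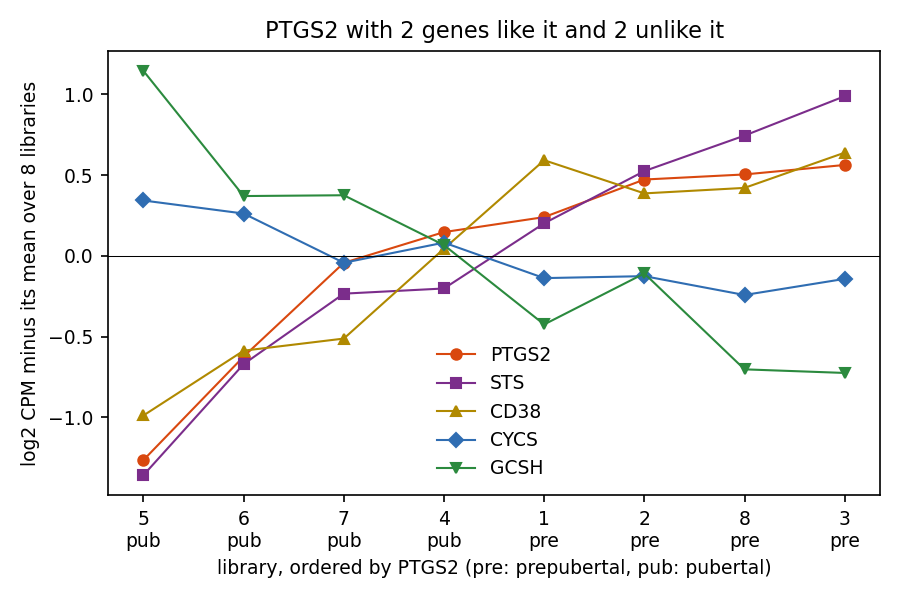
Level of PTGS2, of STS and CD38 (like it) and of CYCS and GCSH (opposed to it) as log2 CPM minus the mean of each gene over the 8 libraries, with the libraries ordered from the lowest to the highest PTGS2 level. Sample 5 is at the left end, lowest for PTGS2, STS and CD38 and highest for CYCS and GCSH.

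The r on deviations from the group means is given for the same genes, which had been picked for extreme r in these libraries, so large values are no separate support. It was 0.93 for STS and 0.90 for ANPEP, the highest of the named genes, and -0.85 for CYCS and -0.82 for ATP5PD, the lowest. Of the 8454 other genes with a mean of at least 10 CPM, 23 had an r above 0.9 on this measure and 51 an r below -0.9. Samples 5 and 6 were the farthest from the median PTGS2 level. Without both of them, r over the other 6 libraries was 0.96 for STS, 0.85 for ANPEP, 0.84 for CD38 and 0.97 for GULO, and it was -0.68 for CYCS, -0.96 for ATP5PD, -0.85 for GCSH and -0.71 for ATP5MF. Without sample 5 alone, 1 of the 8 genes was still among the 4 most like or the 4 most opposed, so the choice of these genes rests on that library. The signs of their r did not change. Without sample 5, r was 0.93 for STS, 0.96 for ANPEP, 0.88 for CD38 and 0.92 for GULO. It was -0.90 for CYCS, -0.86 for ATP5PD, -0.81 for GCSH and -0.92 for ATP5MF.

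Over the 8454 other genes with a mean of at least 10 CPM, the median r with PTGS2 was -0.24. Of these, 54 had an r above 0.9 and 80 an r below -0.9. The closest were ENSBTAG00000017409 (r = 0.99) and ENSBTAG00000012482 (r = 0.96), and the most opposed were ENSBTAG00000011694 (r = -0.98) and ENSBTAG00000033339 (r = -0.97). The sources used here pair no name with these identifiers. ENSBTAG00000017409 stood at 13.7, 14.3, 15.7 and 18.8 CPM in samples 1, 2, 3 and 8, and at 13.6, 4.50, 7.01 and 10.8 CPM in samples 4, 5, 6 and 7, with the same order of the pubertal libraries as PTGS2.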

How the data were processed

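Single-end reads of total RNA were trimmed (Flexbar), aligned to Bos taurus UCD1.2 (STAR) and counted by the authors on Ensembl genes, annotation 105 (HTSeq-count). The deposited values are raw counts, whole reads per gene, without normalization. The processing notes also name FastQC, RSEM and DESeq2. No source states tool versions, how strands were counted or whether molecular identifiers were used, so copies of a molecule may be counted repeatedly and antisense transcripts are uncertain. The 5 HTSeq rows for reads outside genes were left out of library sizes and tests. Between 18510164 and 29549143 reads were counted on genes per library.

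The fit across all genes used edgeR 4.0.16 under R 4.3.3 (filterByExpr, TMM, quasi-likelihood test, no covariate), with DESeq2 1.42.0 as an alternative. p values were adjusted by Benjamini and Hochberg over all genes. Both fits were tested on simulated data. Standard errors of edgeR's log2 fold changes were derived from the fold change and the quasi-likelihood F statistic. Log2 CPM used a prior count of 2. Pairs of libraries of a group differed beyond counting error (chi-square per degree of freedom 23.5 or more), and all were kept as separate replicates.

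PTGS2 and the gene lists were chosen with earlier results of these data known. Named were PTGS2, every listed prostaglandin or leukotriene gene with a paired name, the 4 named genes with the highest and the 4 with the lowest r, the 2 highest and 2 lowest by deviations from group means, and the 2 highest and 2 lowest identifiers of all genes with at least 10 CPM. Exceptions, chosen after their values were seen, were ENO1, UQCRC1, PGD and the 6 identifiers given for their log2 fold change. Names came only from the gene lists of the study, since the RefSeq table (ARS-UCD2.0) matched 0 identifiers. Alternatives were the labels' grouping, the 6 undisputed samples, other normalizations, filters and dispersion, DESeq2, a covariate and leaving out each library. No coordinates are given, since the table's build differs from that of the counts.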

Additional observations from a re-analysis of the deposited data

Results flagged for a closer look

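Each group of 4 libraries was searched for a library set far apart from the other 3 in 46 sets of values, by Dixon's criterion, which chance meets in about 1 of 20 sets, and 10 were found. PTGS2 itself was not among them in either group. Of the genes compared with it, ATP5PD stood apart in sample 1 (201.1 CPM), CYCS in sample 8 (79.6 CPM) and ENSBTAG00000033339 in sample 1 (105.9 CPM).

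The other 7 concern the libraries. Sample 3 stood apart from the prepubertal libraries in its 20112044 gene reads, in its 24203 genes with a read, in the 45.4% of uniquely mapped reads assigned to genes and in the 54.1% outside genes. Sample 7 stood apart from the pubertal libraries with 52.1% assigned and 47.5% outside genes. In sample 8, 17.2% of the mapped reads fell on several loci. The log2 fold change of PTGS2 was -0.72 with the assigned share as a covariate and -0.88 without samples 3 and 7, against -0.80 with all libraries. The part of the gene reads, the genes with a read and the reads on several loci was not tested.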

How the results depend on the processing

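The log2 fold change of PTGS2 was negative in all 20 alternatives, from -1.01 without sample 4 to -0.39 without samples 5 and 6. Without single libraries, the mean of PTGS2 was 798.0 to 857.3 CPM (prepubertal) and 408 to 545.9 CPM (pubertal), its CV 3.19% to 11.5% and 25.9% to 48.5%, and its median rank 121 to 126. The labels' grouping moved the prepubertal CV to 13.4%, and plain CPM, with no TMM factors and the 10 most counted genes left out of the totals, gave means of 1067 and 600.9 CPM, against 832.5 and 470.8 plain CPM with all genes in the totals. The count of called genes, 0 by edgeR, was 128 with DESeq2, 25 with no low-count filter, 11 in the 6 undisputed samples, 2 with RLE size factors, 1 at 10 CPM or more, 1 with robust dispersion, and 0 to 8 without single libraries (5 without sample 1, 8 without 4, 3 without 7, 4 without 8). The 844 genes without overlap became 580 with the labels' grouping, 2657 in the 6 undisputed samples, 1896 without samples 5 and 6, 1870 without samples 3 and 7, and 1135 to 2182 without single libraries, where fewer libraries have to be separated. MGST3 passed the threshold with DESeq2, at a log2 fold change of -1.02. Without single libraries MGST3 ranged from -1.13 to -0.87, MGST2 from -0.72 to -0.48 and GPX3 from -0.81 to -0.59. Of the 8 named genes most like or most opposed to PTGS2, 4 were shared with Spearman's rho and 1 to 8 without single libraries. The causes were not tested. With a minimum of 10 CPM, MGST3 and GPX3 were not in the fit. Other groupings and scalings do not change the place of PTGS2 within a library, and its rank without the 10 most counted genes was not run. Leaving out samples 5 and 6, or 3 and 7, was decided after seeing the data. Counting error limits MGST3 and GPX3, with few reads, more than PTGS2.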

Other observations

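The reads of PTGS2 against those of PGD, an enzyme of the pentose phosphate pathway, give a comparison within a library that needs no scaling between libraries. PGD was chosen after its values were seen. PTGS2 had 2.85, 4.33, 4.25 and 4.83 times the reads of PGD in samples 1, 2, 3 and 8. It had 3.25, 0.78, 0.94 and 2.23 times the reads of PGD in samples 4, 5, 6 and 7. Sample 4 exceeded sample 1, so the groups overlapped in this ratio. PGD is among the 52 genes selected for a difference between the groups and had its most reads in samples 5 and 6, so the low ratios there join 2 selected differences and are no separate support for the level of PTGS2.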
